A study of Mus musculus with 43 samples.

Results

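Cardiomyocytes of Q150X mice, taken 3 days after myocardial infarction (MI), were compared with cardiomyocytes of wild-type (WT) mice taken at the same time. The comparison uses 6 of the 43 bulk RNA-seq libraries of the series, 3 per genotype, chosen by their labels. Q150X is a stop codon placed in Vegfa by CRISPR/Cas9 editing. The allele is written VegfaQ150X/Q150 in the series' description, and the mutants are marked HO, an abbreviation that is not spelled out. The WT groups are labelled as wild type, and both day 3 groups had the infarction. Uninjured cardiomyocytes of the same genotypes, 3 Q150X and 3 WT libraries, served as context and share no library with the day 3 comparison. All were labelled as heart tissue with the cell type cardiomyocytes. The sources used here do not give strain, age, how the cells were isolated, or whether replicates are separate animals, so p-values measure the spread between these libraries, which may be technical.

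Vegfa encodes vascular endothelial growth factor A, which cardiomyocytes secrete and which acts on endothelial cells through the receptors Kdr and Flt1. After infarction, loss of blood flow deprives the muscle of oxygen, and surviving cardiomyocytes near the scar are known to shift toward a fetal gene programme while immune cells and fibroblasts enter the wall. The day 3 comparison asks which transcripts of the cardiomyocyte fraction differ when the animals carry the stop codon.

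The 150th codon of Vegfa was read from the annotation to show the base context of such a stop, since the counts cannot show it. GENCODE vM21 (build GRCm38) has 7 coding transcripts that reach that codon, on the minus strand of chromosome 17, and it is a CAA (glutamine) codon in all 7, at 2 different places depending on the start codon. Transcripts that start at CTG (5 of them) have it in exon 1, at chr17:46031441-46031443. Transcripts that start at ATG (Vegfa-203 and Vegfa-204) have it in exon 6, at chr17:46022318-46022320. A C-to-T change of the first base would make either one a stop. The sources used here do not say which of them was edited. The reference windows are shown 5′ to 3′ on the coding strand, with codon 150 in capitals.
CTG start, exon 1: agaggagcccgcCAAggcgcgcaagag
ATG start, exon 6: aagggaaagggtCAAaaacgaaagcgc

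The Q150X libraries of day 3 held 34420800, 36377605 and 34541532 counts, and the WT libraries held 34939766, 40041379 and 42246348. Mitochondrial genes took 33.1, 37.3 and 34.6% of the counts in Q150X libraries and 37.7, 36.0 and 36.4% in WT libraries. Among the uninjured libraries, WT library 2 had 50.0% and the rest 36.9 to 41.5%. Both groups carried the defining transcripts of cardiomyocytes: the 20 marker genes of cardiomyocyte identity summed to 69532 to 86529 CPM (counts scaled to library size with TMM factors) in Q150X and 70587 to 90452 CPM in WT. The same sum was 95247 to 115090 CPM in the 6 uninjured libraries. Transcripts of other cell types were present at day 3 and are given beside the results they touch. All 12 cardiomyocyte libraries had Ddx3y, a Y-linked gene, at 91.8 CPM or more, and Xist, RNA of the inactive X, at 0.490 CPM or less. A gene's count does not show a stop codon, so the genotype labels could not be checked with these data.

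No gene passed the test between Q150X and WT cardiomyocytes at day 3. Of 15169 genes tested, 0 (0%) had an adjusted p under 0.05 by edgeR's quasi-likelihood test with Benjamini-Hochberg adjustment, and the smallest adjusted p was 0.317. Unadjusted, 254 genes (1.67%) had a p under 0.05, 138 of them higher in Q150X (0.91%) and 116 lower (0.765%). Scaled by library size alone, the split was 202 higher and 42 lower. DESeq2 called 2 genes and limma voom 1. The distribution of p-values at day 3 holds fewer small values than the 5% that a flat distribution would give. The genotype contrast in uninjured cardiomyocytes, fitted in the same model, had 0 genes past the adjusted threshold as well (smallest adjusted p 0.109) and 2009 genes (13.2%) with an unadjusted p under 0.05, 857 of them higher in Q150X (5.65%) and 1152 lower (7.59%). With 1 library left out, this uninjured count ranged from 1289 (without uninjured WT library 2) to 2340 (without uninjured Q150X library 2). The day 3 count then ranged from 188 (without day 3 WT library 3) to 531 (without day 3 WT library 1). These fits tested 15531 to 15664 genes.

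**Figure D1:**
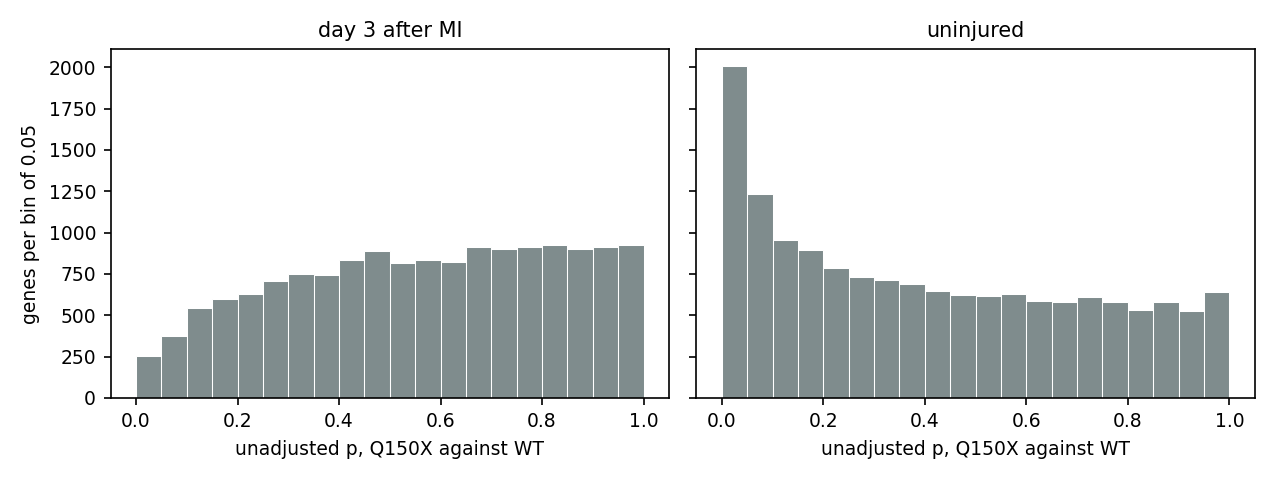
Number of genes (vertical axis, bins of 0.05) by unadjusted p of the edgeR test of Q150X against WT (horizontal axis), at day 3 after MI on the left and in uninjured cardiomyocytes on the right. The first bin holds 254 genes at day 3 and 2009 genes without injury, of 15169 tested.

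The typical difference between genotypes at day 3 was smaller than its typical standard error. The median size of the log2 fold change (Q150X over WT) was 0.12, against a median standard error of 0.20. The quartiles of all genes were -0.10 and 0.14. The median standard deviation (SD) of log2 CPM was 0.22 among Q150X libraries and 0.20 among WT libraries. For 10649 genes (70.2%) the 95% interval of the difference excluded a 2-fold change in both directions, and for 7798 (51.4%) it excluded a 1.5-fold change. Among the 6674 genes that averaged at least 10 CPM, 6515 (97.6%) excluded a 2-fold change. Without WT library 1, 1 gene, the unnamed ENSMUSG00000095041, passed the adjusted threshold, and without any other of the 12 libraries none did.

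Vegfa mRNA itself was abundant in both groups. The Q150X libraries had 363, 269 and 238 CPM of Vegfa, against 258, 323 and 317 CPM in the WT libraries. The groups overlapped, with the highest and the lowest value both in Q150X. The log2 fold change of Vegfa was -0.05 ± 0.15 (standard error, SE), a ratio of 0.969 with a 95% interval of 0.771 to 1.22. Without Q150X library 1 the log2 fold change was -0.23, and without any other single library of day 3 it lay between -0.13 and 0.08. Uninjured cardiomyocytes had 455 to 622 CPM of Vegfa in Q150X and 456 to 554 CPM in WT.

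The receptors and other members of the VEGF family were also within their spread. Most of these receptors are endothelial, and in a bulk sample fewer cells of a type and less RNA per cell cannot be told apart. Kdr, the main signalling receptor of VEGF-A, stood at 39.1, 36.4 and 35.4 CPM in Q150X and 42.0, 39.6 and 34.2 CPM in WT (-0.06 ± 0.30). Flt1, a receptor that also acts as a decoy, stood at 28.4, 37.5 and 29.4 CPM in Q150X and 24.8, 37.6 and 33.6 CPM in WT (-0.01 ± 0.36). The coreceptor Nrp1 had 44.5, 36.7 and 57.7 CPM in Q150X and 60.4, 55.4 and 52.0 CPM in WT (-0.27 ± 0.17), and these groups overlapped. Vegfc, the ligand best known for lymphatic growth, had 2.14, 1.34 and 1.70 CPM in Q150X and 1.46, 1.22 and 0.905 CPM in WT (0.54 ± 0.44). Of the 10 ligands and receptors of the family, all tested, 0 had an unadjusted p under 0.05 at day 3 (1.67% of all genes). With so few genes, 0 is near that share. Their median log2 fold change was 0.14. In a wider list of angiogenic ligands made by myocardium, 25 of 26 genes were tested and 0 had an unadjusted p under 0.05 (median 0.05). Fgf9, a growth factor, was lower in every Q150X library (4.31, 4.90 and 3.72 CPM) than in any WT library (5.74, 4.92 and 6.22 CPM), with a log2 fold change of -0.39 ± 0.19. Fully separated groups of this kind were found for 1017 genes (6.7%) of the whole table, 558 (3.68%) higher and 459 (3.03%) lower in Q150X.

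**Figure D2:**
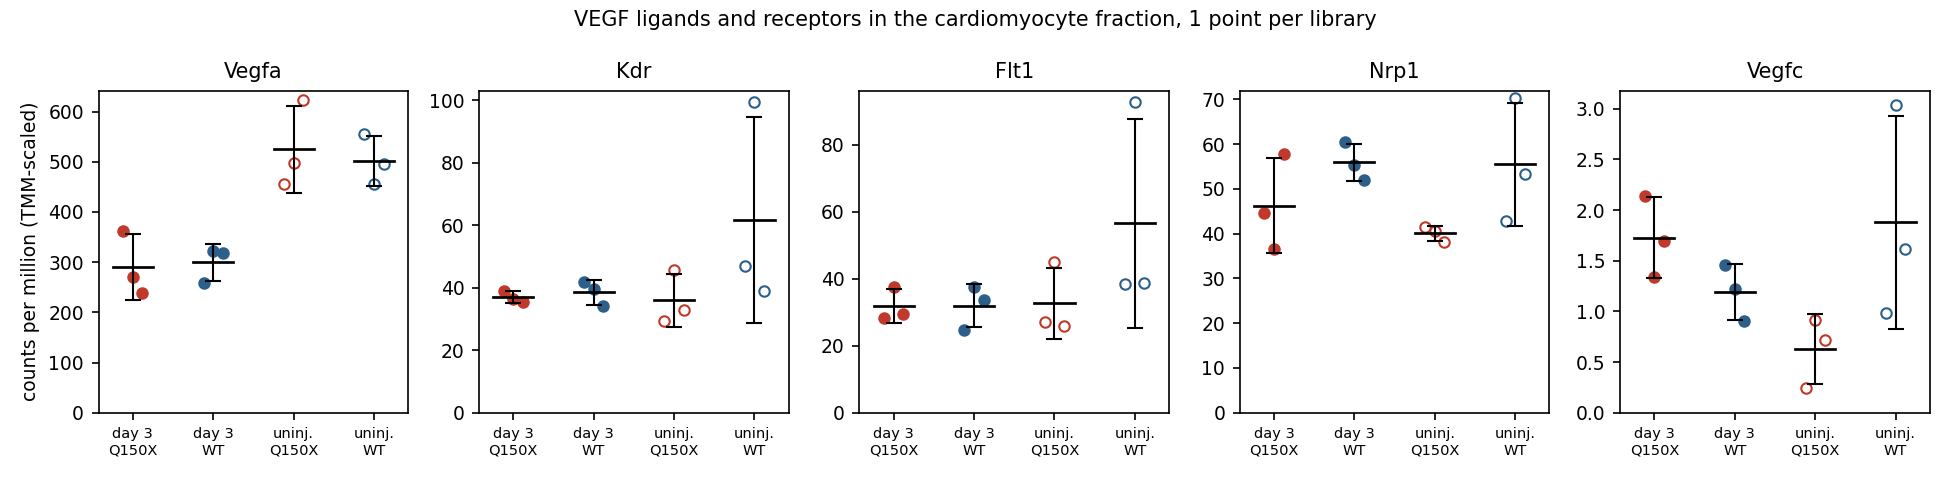
TMM-scaled CPM (vertical axis, linear from 0) of Vegfa, Kdr, Flt1, Nrp1 and Vegfc in cardiomyocyte libraries of Q150X (red) and WT (blue), filled at day 3 and open without injury. Points are libraries, and bars are the mean and SD of 3. At day 3 the genotypes overlap in all 5 genes, with Vegfa at 238 to 363 CPM in Q150X and 258 to 323 CPM in WT.

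The genes of smallest p at day 3 were examined by level although none passed the test; the 20 that follow all had an adjusted p that rounds to 1 by edgeR's quasi-likelihood test, and their separation is in part the result of being picked by p. The lists were limited to named genes that averaged at least 1 log2 CPM. Of the 10 on the higher side, 8 had fully separated groups, and of the 10 on the lower side, 10 did. Of these 20 genes, 9 overlap an annotated gene of the other strand. Whether counting used the strand is not given, so reads of such partners cannot be told apart.

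On the higher side, transporters and a chemokine receptor came first. Slc16a3, which exports lactate and is a known hypoxia target, had 4.36, 3.55 and 4.80 CPM in Q150X against 2.45, 2.35 and 1.99 CPM in WT. Every Q150X library was above every WT library. The log2 fold change of Slc16a3 was 0.91 ± 0.25, a ratio of 1.87 with a 95% interval of 1.297 to 2.70, and the uninjured libraries of both genotypes held 0.258 to 0.395 CPM. Slc52a2, a riboflavin transporter, had 4.67, 3.75 and 4.56 CPM in Q150X against 2.83, 2.67 and 2.19 CPM in WT (0.75 ± 0.23). Ccrl2, an atypical chemokine receptor, had 32.4, 19.97 and 27.2 CPM in Q150X against 12.4, 19.4 and 18.4 CPM in WT (0.66 ± 0.20). The margin between the groups was narrow for Ccrl2, where the lowest Q150X library stood just above the highest WT library.

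Further genes on that side touch the cytoskeleton and protein turnover. Map6, a microtubule-stabilising protein, had 6.63, 6.70 and 9.16 CPM in Q150X against 5.51, 4.71 and 4.30 CPM in WT (0.63 ± 0.22). Pdlim3, a Z-disc protein that binds alpha-actinin, had 23.7, 17.5 and 31.9 CPM in Q150X against 14.8, 19.2 and 17.1 CPM in WT (0.52 ± 0.19). Its groups overlapped, and without Q150X library 3 the value was 0.27. Hspa1a, an inducible HSP70 chaperone, had 18.9, 6.06 and 8.55 CPM in Q150X against 2.71, 4.90 and 6.49 CPM in WT (1.25 ± 0.45). Its groups overlapped too, and Q150X library 1 was far above the others: without that library the value was 0.64. Hspa1a and Hspa1b are near-identical copies that can share reads, so the split between them is uncertain. Klhdc3, a substrate receptor of a cullin ubiquitin ligase, differed by 0.28 ± 0.10, and Anapc16, a subunit of the anaphase-promoting complex, by 0.28 ± 0.10. The secreted C1q family member C1qtnf6 (0.72 ± 0.26) and Tmem254a (0.74 ± 0.26), one of several similar gene copies, complete the 10.

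On the lower side, Abat led by p. Abat, the mitochondrial enzyme that breaks down GABA, had 16.4, 11.7 and 12.3 CPM in Q150X against 19.0, 23.8 and 20.05 CPM in WT (-0.64 ± 0.16). Zkscan3, a zinc-finger repressor of autophagy genes, had 19.2, 22.8 and 22.6 CPM in Q150X against 30.2, 29.5 and 35.8 CPM in WT (-0.56 ± 0.14). The mitochondrial large ribosomal RNA mt-Rnr2 had 5069, 6572 and 5113 CPM in Q150X against 7752, 7709.7 and 8220.2 CPM in WT (-0.50 ± 0.14). Each of these 3 genes had all Q150X libraries below all WT libraries. With no filter on low counts, which changes how many genes are tested and the shared spread, Abat (adjusted p = 0.0298), Zkscan3 (0.0331), mt-Rnr2 (0.0172) and Ccrl2 (0.0147) passed edgeR's quasi-likelihood test. That fit called 8 genes, among them the liver gene Ttr, with 103, 6 and 5 counts in Q150X against 4, 4 and 2 in WT. By limma voom Ccrl2 was at 0.37 (adjusted p = 0.816) and Abat at -0.80 (adjusted p = 0.0774).

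The other lower genes differed less in size or were scarcer. Arhgap12 differed by -0.40 ± 0.11, and the vesicle motor Myo5b by -0.35 ± 0.11. Xpo5, which exports microRNA precursors from the nucleus, had 25.5, 24.5 and 24.1 CPM in Q150X against 30.9, 32.8 and 29.1 CPM in WT (-0.32 ± 0.11). Tsr1, a factor of small ribosomal subunit assembly, differed by -0.34 ± 0.11, and Smim13 by -0.37 ± 0.10. Enpep, a peptidase that cleaves angiotensin II, differed by -0.61 ± 0.20, and the microtubule-associated Map10 by -0.65 ± 0.21.

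**Figure D3:**
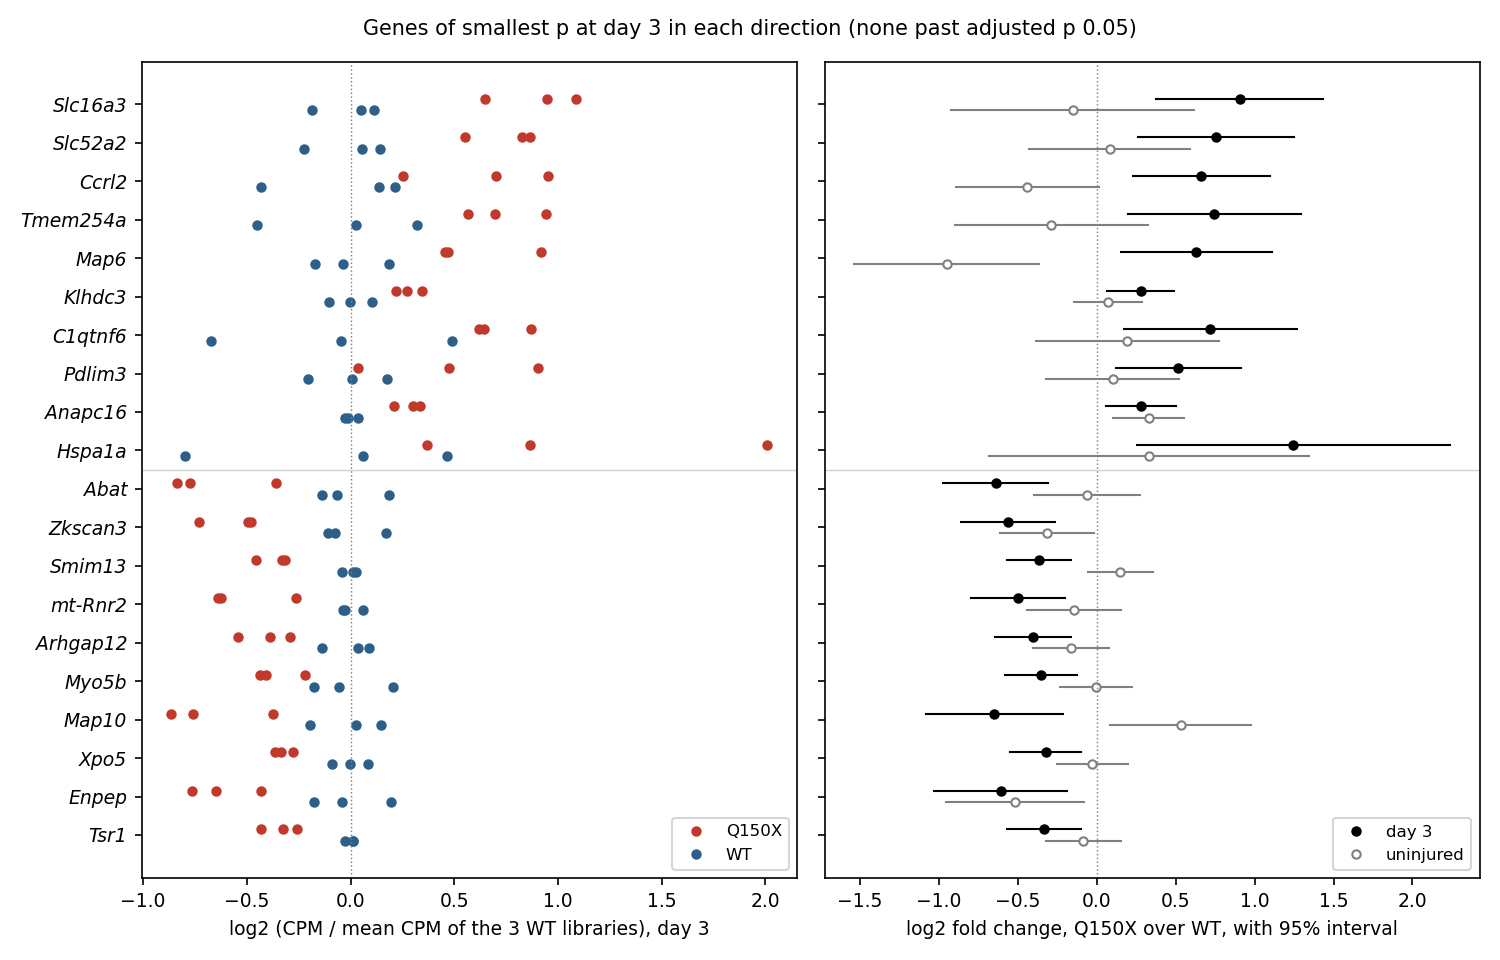
The 10 named genes of smallest p in each direction at day 3, none past the adjusted threshold. Left: log2 ratio of each library's CPM to the mean of the 3 WT libraries of day 3, Q150X in red and WT in blue. Right: log2 fold change of Q150X over WT with its 95% interval, at day 3 (filled) and without injury (open). Slc16a3 has the smallest p among the higher genes (0.91) and Abat among the lower ones (-0.64).

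Genes of the contractile apparatus were close to WT levels. Of the 35 genes of the sarcomere and Z-disc list, all tested, 0 had an unadjusted p under 0.05 (1.67% of all genes). Their median log2 fold change was -0.0025 (all genes 0.0072), and 33 had an interval that excluded a 2-fold difference. Myh6, the adult myosin heavy chain, had 23369, 17739 and 16287 CPM in Q150X against 16712, 23415 and 25241 CPM in WT (-0.19 ± 0.15). Myh7, the heavy chain of the fetal and stressed mouse ventricle, had 1327, 869 and 634 CPM in Q150X against 752, 646 and 508 CPM in WT (0.57 ± 0.32). The Myh7 groups overlapped, with the highest value in Q150X library 1, without which the value was 0.24. Cmya5, a costameric protein, had the next smallest p of the list (-0.28 ± 0.18).

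The stress and fetal gene programme showed no called member either, with 21 of 22 genes tested and a median of 0.09. Nppa, the atrial natriuretic peptide that ventricles make under stress, had 221, 455 and 616 CPM in Q150X and 462, 257 and 369 CPM in WT (0.25 ± 0.41). All these values were above the 15.5 to 49.7 CPM of the uninjured libraries, and the genotypes overlapped widely. Nppb and Ankrd1, 2 further stress genes named after their values were seen, differed by 0.10 ± 0.20 and -0.09 ± 0.17. Lcn2, a secreted iron-binding protein of injury, differed by -0.42 ± 0.42. Myl7, the atrial myosin light chain, was at most 0.102 CPM in any day 3 library. The 8 atrial markers, which include Nppa and Myl7, summed to 231, 465 and 622 CPM in Q150X and 468, 266 and 378 CPM in WT. Uninjured libraries held 28.1 to 61.6 CPM of them.

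Calcium handling and conduction genes were likewise near 0. The calcium handling list (24 of 26 tested) had a median of -0.02, and all 24 intervals excluded a 2-fold difference. Its smallest p values were those of Asph (-0.15 ± 0.10), whose locus also encodes junctin of the calcium release unit, and of Ryr2, the calcium release channel (-0.20 ± 0.14). Of 32 ion channels and gap junction genes, 1 had an unadjusted p under 0.05 (1.67% of all genes). That gene was Scn4b, a sodium channel subunit, with 22.3, 32.8 and 15.3 CPM in Q150X against 33.8, 31.8 and 34.3 CPM in WT (-0.51 ± 0.20). Its groups overlapped through Q150X library 2. The Scn4b value was -0.82 without that library and -0.27 without Q150X library 3. Among 18 tested genes of adrenergic and muscarinic signalling, Grk5, a receptor kinase, was lower in all Q150X libraries (43.8, 53.4 and 58.8 CPM) than in WT libraries (65.6, 63.5 and 59.8 CPM), at -0.28 ± 0.17, and Pde3a, a cAMP phosphodiesterase, differed by -0.13 ± 0.10. The 21 cardiac transcription factors had a median of -0.01 and intervals that all excluded a 2-fold difference. Prox1 (-0.27 ± 0.15) and Hand2 (0.17 ± 0.12) had the smallest p among them. In the list of cytoskeleton, intercalated disc and integrins (34 genes, median 0.0036), 1 gene had an unadjusted p under 0.05 (1.67% of all genes). It was Itga7, the laminin receptor of muscle, with 222, 222 and 227 CPM in Q150X against 256, 263 and 244 CPM in WT (-0.18 ± 0.09). Itgb6, an integrin subunit, differed by -0.39 ± 0.20.

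Genes of energy metabolism were mostly bounded within 2-fold. All 40 genes of fatty acid uptake and oxidation, the main fuel of the adult heart, were tested. They had 0 unadjusted p under 0.05 (1.67% of all genes), a median of -0.03 and 37 intervals that excluded a 2-fold difference. Cpt1a, which admits fatty acids to mitochondria, had 66.5, 61.2 and 70.7 CPM in Q150X against 60.0, 59.7 and 60.8 CPM in WT (0.14 ± 0.09). All intervals excluded a 2-fold difference for the 20 tricarboxylic acid cycle genes (median 0.0028), the 36 nuclear subunits of complex I (median 0.04) and the 36 of complexes III to V (median 0.05). Sdhd (0.14 ± 0.10) and Fh1 (-0.05 ± 0.11) had the smallest p of the cycle, and Atp5g2 (0.20 ± 0.11) and Atp5d (0.20 ± 0.14) those of complexes III to V. The complex I subunit Ndufa11 had an unadjusted p under 0.05, with 48.9, 39.0 and 34.0 CPM in Q150X against 32.6, 30.8 and 37.0 CPM in WT (0.28 ± 0.13), and Ndufs7 differed by 0.25 ± 0.16. Without Q150X library 1 the values were 0.13 for Ndufa11 and 0.02 for Ndufs7. Among 28 genes of ketone, pyruvate and branched-chain amino acid oxidation (median -0.05), Pdp2, a phosphatase that activates pyruvate dehydrogenase, had 26.9, 20.5 and 16.8 CPM in Q150X against 27.8, 25.9 and 31.3 CPM in WT (-0.41 ± 0.17, or -0.26 without Q150X library 3), and Ppm1k, which activates branched-chain amino acid breakdown, differed by -0.17 ± 0.13.

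Transcripts of the mitochondrial genome tended to lower values without a call. Of 13 mitochondrially encoded protein genes, 11 had a value below 0, with a median of -0.13. Among them 0 had an unadjusted p under 0.05 (1.67% of all genes). mt-Nd2 had 24958, 30945 and 25848 CPM in Q150X against 30053, 30150.0 and 31342 CPM in WT (-0.16 ± 0.14), and mt-Atp8 differed by -0.71 ± 0.43. The small ribosomal RNA mt-Rnr1, named beside mt-Rnr2 after its values were seen, had 1417, 1916 and 1121 CPM in Q150X against 1745, 2064 and 1903 CPM in WT (-0.36 ± 0.19). The 36 nuclear genes of mitochondrial translation and import had a median of 0.0017. Tfb2m, a mitochondrial transcription factor, differed by -0.21 ± 0.10, and Mrps18a, a mitochondrial ribosomal protein, by 0.18 ± 0.11.

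Responses to low oxygen and to protein stress gave single genes rather than groups. In the hypoxia and glycolysis list (36 genes, median 0.03), 2 genes had an unadjusted p under 0.05, both higher in Q150X (0.91% of all genes). They were Slc16a3, already described, and the glycolytic enzyme Eno1, which had 161, 140.4 and 191 CPM in Q150X against 149, 117 and 139.6 CPM in WT (0.28 ± 0.12, or 0.16 without Q150X library 3). The heat shock and chaperone list (26 genes, median 0.0025) had Hspa1a alone, with Hspa1b next (0.98 ± 0.58). In the oxidative stress list (26 genes, median -0.0056), 0 genes had an unadjusted p under 0.05 (1.67% of all genes). Gsta4, a glutathione transferase, was lower in all Q150X libraries (51.9, 53.1 and 50.5 CPM) than in WT libraries (58.4, 56.2 and 63.2 CPM), at -0.19 ± 0.12, while the scarce Gsta3 stayed under 1 CPM (1.36 ± 0.68).

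The integrated stress response held the most genes with an unadjusted p under 0.05 of all the lists at day 3. Of its 23 tested genes, 1 was higher and 4 were lower at that level, against 0.91% and 0.765% of all genes, and the median was -0.18. That median was -0.15 without WT library 1 of day 3, and -0.28 to -0.13 under the alternatives run. Only 4 of the 23 genes had a value above 0. Cebpb, a stress-induced transcription factor, had 3.41, 1.497 and 1.38 CPM in Q150X against 1.05, 1.33 and 0.701 CPM in WT (1.02 ± 0.37), and without Q150X library 1 the value was 0.49. Mthfd2, a mitochondrial folate enzyme, had 2.94, 3.43 and 6.63 CPM in Q150X against 21.3, 3.84 and 8.92 CPM in WT (-1.38 ± 0.53). WT library 1 was far above all others for Mthfd2, and without it the value was -0.55. The other 3 lower genes, named after their values were seen, are amino acid enzymes or regulators of the same response and had their highest value in the same library. Phgdh, of serine synthesis, had 5.54 CPM there and 0.284 to 2.17 CPM in the other 5 libraries of day 3. Asns, which makes asparagine, had 13.8 CPM there and 0.800 to 3.12 CPM elsewhere, and Trib3, a pseudokinase induced by stress, had 3.42 CPM there and 0.203 to 1.09 CPM elsewhere.

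Signalling lists outside the muscle machinery also had 0 adjusted calls. In the insulin, IGF and mTOR list (24 of 25 tested, median -0.02), Irs2, an insulin receptor adaptor, was higher in all Q150X libraries (183, 83.8 and 83.1 CPM) than in WT libraries (70.3, 62.6 and 62.2 CPM), at 0.84 ± 0.43; without Q150X library 1 the value was 0.36. Igfbp4, an IGF-binding protein, differed by 0.62 ± 0.31. Immediate early genes (24 of 25 tested) had a median of 0.22, which became -0.08 without Q150X library 1 and 0.62 without WT library 2. Nr4a3, a nuclear receptor of that list, had 61.7, 58.8 and 53.5 CPM in Q150X against 28.6, 45.1 and 28.1 CPM in WT (0.77 ± 0.43), and its relative Nr4a2 differed by 0.54 ± 0.32, or 0.25 without Q150X library 1 and 0.92 without WT library 2. In the list of p53 and cell death genes (24 genes, median 0.11), Bcl2, which blocks apoptosis, was lower in all Q150X libraries (3.92, 5.63 and 5.10 CPM) than in WT libraries (8.14, 6.58 and 5.95 CPM), at -0.50 ± 0.22, and Gsdmd, the pore protein of pyroptosis, differed by 0.81 ± 0.39. The autophagy and proteasome list (31 genes, median 0.01) had all intervals within 2-fold, with Psmb5, a catalytic proteasome subunit, at 0.21 ± 0.10 and Atg12, of autophagosome formation, at -0.18 ± 0.12. Iron and heme genes had a median of -3.0e-04 over 20 tested genes, with Ftl1, the ferritin light chain, at 0.24 ± 0.16 and Hmox1, which degrades heme, at 0.40 ± 0.30. Circadian clock genes had a median of 0.09 over 18 genes, and the clock activator Arntl had 1.45, 1.40 and 1.31 CPM in Q150X against 3.50, 1.68 and 2.35 CPM in WT (-0.86 ± 0.50), with Nfil3 at 0.31 ± 0.19.

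**Figure D4:**
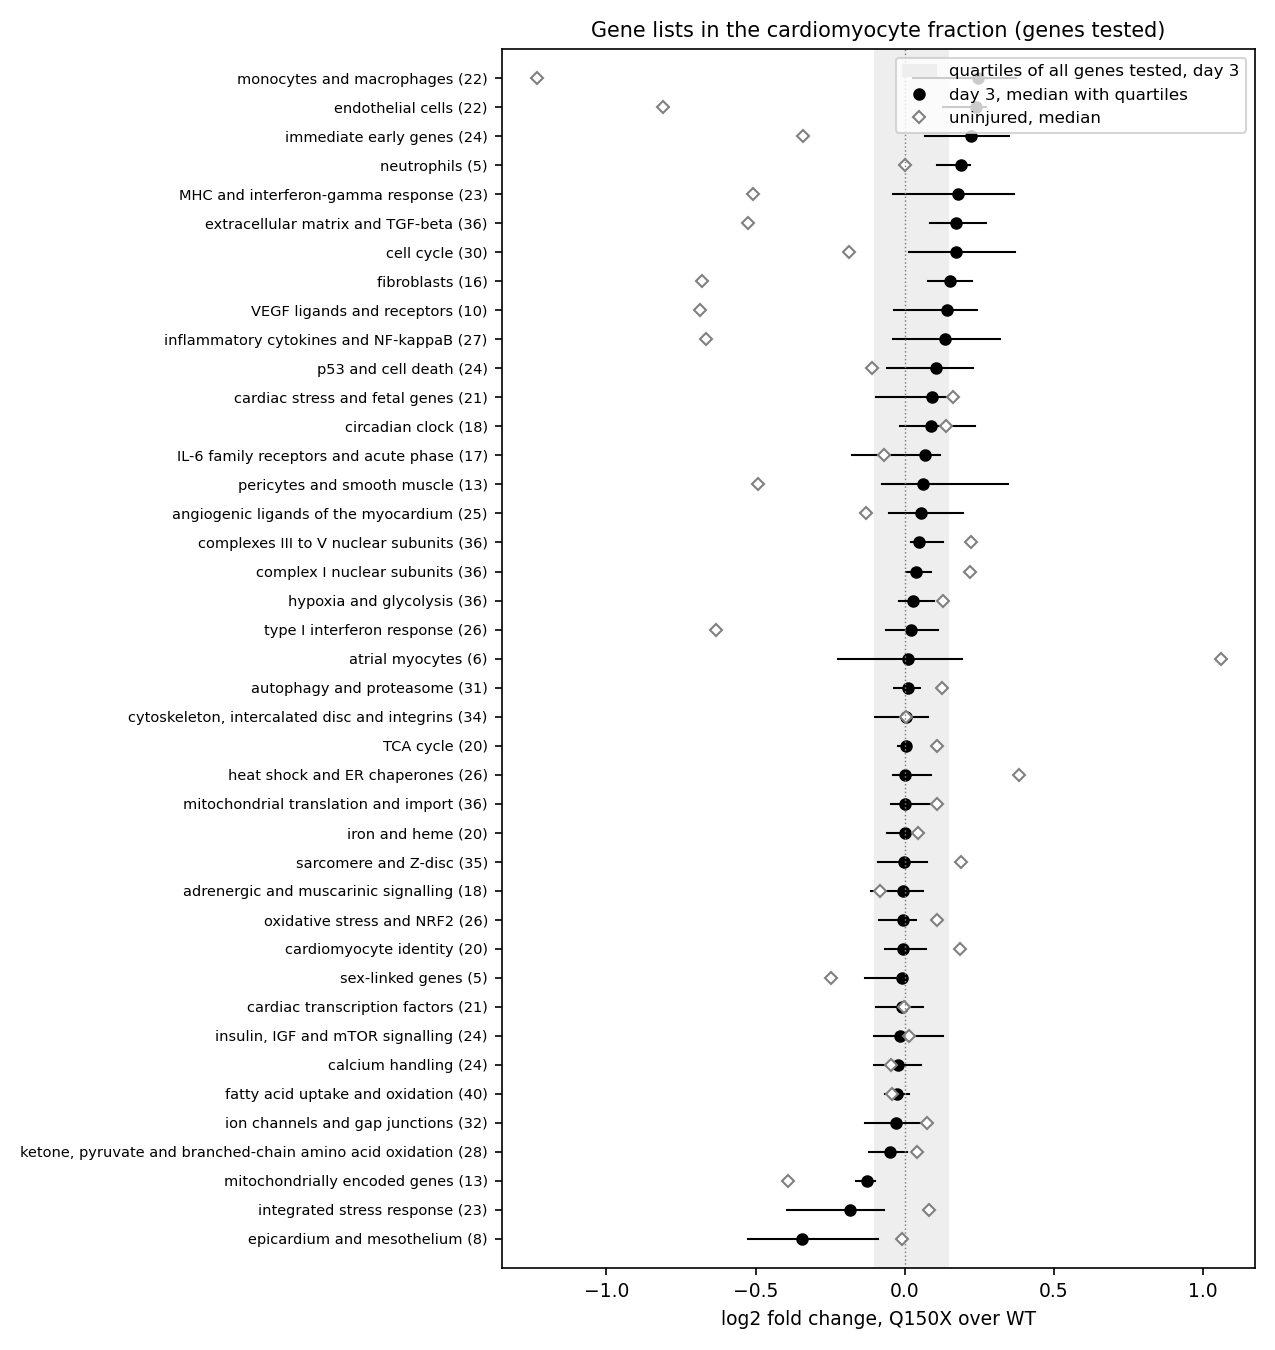
Median log2 fold change of Q150X over WT (horizontal axis) in each gene list with at least 5 tested genes, the number tested in brackets. Filled points with lines are the medians and quartiles at day 3, open diamonds the medians without injury, and the grey band the quartiles of all genes at day 3 (-0.10 to 0.14). Lists of muscle and energy metabolism sit near 0 at day 3, except the mitochondrially encoded genes (-0.13). The highest median is that of the macrophage list (0.25, or -0.22 without Q150X library 3). The lowest is that of the epicardial list (-0.35, or 0.04 without WT library 3).

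Transcripts of non-muscle cells were present in the fraction at day 3. The 22 macrophage markers summed to 205, 233 and 499 CPM in Q150X and 335, 251 and 177 CPM in WT, against 5.09 to 18.4 CPM in the uninjured libraries. The 16 fibroblast markers summed to 820, 921 and 1450 CPM in Q150X and 1015, 1081 and 650 CPM in WT, against 52.7 to 220 CPM without injury. Both sums were highest in Q150X library 3 and lowest in WT library 3, and the genotypes overlapped. The 22 endothelial markers summed to 495, 528 and 589 CPM in Q150X and 484, 495 and 407 CPM in WT. These groups were separated by less than 1 CPM (exact permutation test of the means, two-sided p = 0.1, the smallest that 3 against 3 libraries can give). Any full separation gives this p, and it was the smallest among the 13 marker lists. Scaled by library size alone the endothelial sums were 558, 572 and 693 CPM in Q150X and 543, 537 and 426 CPM in WT. Pericyte and smooth muscle markers summed to 2748 to 3326 CPM in Q150X and 2839 to 3203 CPM in WT. Neutrophil markers reached at most 6.38 CPM, lymphocyte markers 1.94, red cell markers 3.89, epicardial markers 9.30, Schwann cell markers 4.67 and adipocyte markers 0.138 CPM in any day 3 library. The fat hormone Adipoq and the lymphocyte gene Nkg7 had 0 counts in all 6.

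**Figure D5:**
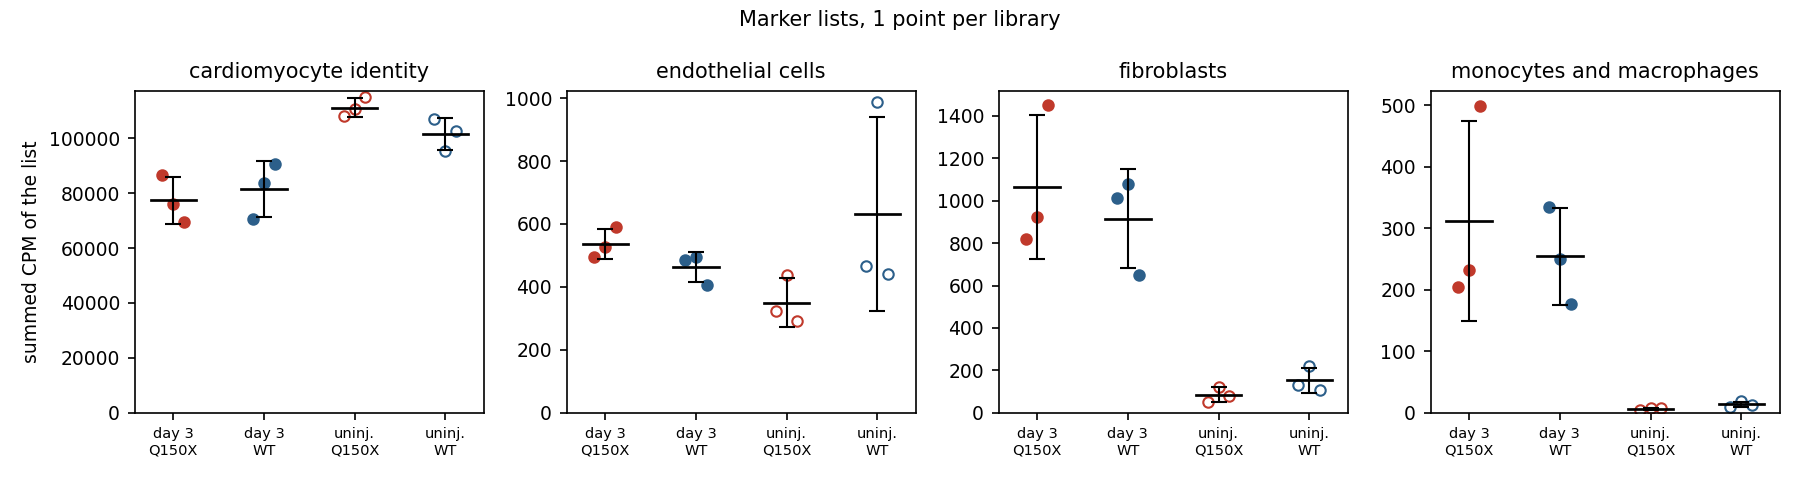
Summed TMM-scaled CPM (vertical axis, linear from 0) of 4 marker lists in cardiomyocyte libraries, Q150X in red and WT in blue, filled at day 3 and open without injury. Points are libraries, and bars are the mean and SD of 3. Macrophage and fibroblast sums are higher at day 3 than without injury in both genotypes (177 to 499 CPM against 5.09 to 18.4 CPM for macrophages), and at day 3 the genotypes overlap in both.

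Gene by gene, markers of these cells leaned to positive values with 0 calls. Of 22 endothelial genes, 18 had a value above 0 and 3 were higher in every Q150X library than in any WT library, against 3.68% of all genes. Their median was 0.24, and 0.12 to 0.30 under the alternatives run. Eng, a TGF-beta coreceptor of endothelium, had 28.2, 22.6 and 26.8 CPM in Q150X against 19.4, 22.1 and 19.1 CPM in WT (0.35 ± 0.21), and the transcription factor Sox18 differed by 0.69 ± 0.35. Of 22 macrophage genes 18 were above 0 (median 0.25), and of 16 fibroblast genes 15 were (median 0.15). Without Q150X library 3 the macrophage median was -0.22 and the fibroblast median -0.02, and without WT library 3 they were 0.0098 and -0.01. Gpnmb, a lysosomal glycoprotein of macrophages, had 11.4, 19.8 and 41.5 CPM in Q150X against 16.6, 15.7 and 8.73 CPM in WT (0.83 ± 0.39); without Q150X library 3 the value was 0.19. The complement gene C1qa differed by 0.51 ± 0.36, and the fibroblast genes Vim and Mfap4 by 0.48 ± 0.40 and 0.75 ± 0.51, or 0.0072 and 0.44 without Q150X library 3. Smooth muscle genes had a median of 0.06 over 13 tested genes, with Myh11, the smooth muscle myosin, at 0.35 ± 0.19 and Mylk at 0.35 ± 0.22.

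Lists of inflammation, matrix and proliferation moved with the same libraries. Extracellular matrix and TGF-beta genes (36 tested, median 0.17) had 32 values above 0 and 0 unadjusted p under 0.05 (1.67% of all genes). Their median was 0.02 without Q150X library 3 and 0.01 without WT library 3. Tgfb1, the cytokine that drives scar formation, differed by 0.31 ± 0.19, and the membrane protease Mmp14 had 14.6, 14.6 and 27.5 CPM in Q150X against 16.3, 16.2 and 6.13 CPM in WT (0.55 ± 0.46). Cell cycle genes (30 tested, median 0.17) had 1 gene with an unadjusted p under 0.05 (1.67% of all genes). It was the mitotic kinesin Kif20a, with 2.32, 2.84 and 4.43 CPM in Q150X against 1.99, 1.84 and 1.31 CPM in WT (0.90 ± 0.35, or 0.59 without Q150X library 3). The cyclin Ccnb2 differed by 0.67 ± 0.42. The cell cycle median was -0.12 without Q150X library 3. Genes of antigen presentation and the interferon-gamma response (23 tested) had a median of 0.18, with H2-K1, a classical MHC class I chain, at 0.31 ± 0.15 and Irf8, a myeloid transcription factor, at 0.58 ± 0.35. Inflammatory cytokines and NF-kappaB genes (27 of 28 tested) had a median of 0.13. The chemokine Ccl4 was higher in all Q150X libraries (2.25, 3.48 and 4.19 CPM) than in WT libraries (1.97, 2.18 and 1.18 CPM), at 0.90 ± 0.52, and Nfkbia, the inhibitor of NF-kappaB, differed by 0.23 ± 0.14. With the mean of the macrophage markers as a covariate, an alternative chosen after seeing the data, the medians were 0.08 for matrix, -0.0028 for cell cycle, 0.0027 for antigen presentation, 0.0050 for fibroblasts, 0.14 for endothelial genes, 0.13 for cytokines and NF-kappaB, 0.23 for immediate early genes and -0.11 for type I interferon genes. The covariate was measured in the same libraries that moved these medians, so it cannot show the part of macrophages in them. That part was not tested.

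The type I interferon and IL-6 lists had medians near 0 that changed sign when single libraries were left out. The type I interferon list (26 genes) had a median of 0.02, with Ifi27 at 0.40 ± 0.26 and Bst2 at 0.41 ± 0.33. Its median was -0.19 without Q150X library 3, -0.15 without WT library 3 and 0.18 without Q150X library 2. The list of IL-6 family receptors and acute phase genes (17 of 19 tested) had a median of 0.07. That median was -0.09 without Q150X library 3 and -0.09 without WT library 3, and 9 of the 17 intervals excluded a 2-fold difference. Il6st, the shared receptor subunit gp130, had 147, 164 and 152 CPM in Q150X against 163, 179.7 and 177 CPM in WT (-0.17 ± 0.08), and Cebpd, a transcription factor of the acute phase, differed by 0.38 ± 0.23.

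Whether the genotype difference at day 3 differed from that without injury was tested as an interaction. Of 15169 genes, 0 (0%) passed an adjusted p of 0.05 by edgeR's quasi-likelihood test (smallest 0.495), and 1186 (7.82%) had an unadjusted p under 0.05, 797 of them higher (5.25%) and 389 lower (2.56%). DESeq2 called 20 genes for this interaction. Several lists had medians of opposite sign at the 2 times. Endothelial genes had a median of 0.24 at day 3 and -0.81 without injury. Of the 22, 0 had an unadjusted p under 0.05 at day 3 (1.67% of all genes), 16 without injury (13.2% of all genes) and 13 in the interaction (7.82% of all genes). The uninjured WT library 2 held 988 CPM of these markers against 291 to 467 CPM in the other 5 uninjured libraries, and its part in that result was not tested. Macrophage genes had medians of 0.25 and -1.23, matrix genes 0.17 and -0.52, and the VEGF family 0.14 and -0.69. Uninjured WT library 2 held 99.6 CPM of Kdr and 92.7 of Flt1, against at most 46.8 and 44.9 CPM in the other 5. Macrophage markers summed to only 5.09 to 18.4 CPM without injury, highest in that library. Its part in these medians was not tested.

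The genes of smallest interaction p show where day 3 and uninjured values part. Map6, which is described above at day 3, had 0.904, 0.9501 and 0.723 CPM in uninjured Q150X against 1.16, 2.11 and 1.71 CPM in uninjured WT, an interaction of 1.58 ± 0.36 (log2). Mtss1, a membrane-bending actin regulator, had 24.5, 15.9 and 17.6 CPM in Q150X and 18.6, 15.8 and 13.5 CPM in WT at day 3, while uninjured libraries held 14.99, 16.4 and 12.2 CPM in Q150X against 22.4, 29.8 and 32.7 CPM in WT. The transcriptional cofactor Ldb2 followed the same order, at 0.19 ± 0.26 at day 3 and -1.64 ± 0.29 without injury. The cytokine gene Il6 and the transcription factor Runx1 were within the spread at day 3 (0.19 ± 0.30 and 0.16 ± 0.36). Without injury both were near the counting limit, with 0, 0 and 0 counts of Il6 in Q150X against 4, 4 and 4 in WT, and 0, 2 and 3 counts of Runx1 in Q150X against 12, 14 and 20 in WT.

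On the other side of the interaction, tubulins led. Tubb4b, a beta tubulin, had 145, 133 and 145 CPM in Q150X and 165, 154 and 136 CPM in WT at day 3 (-0.10 ± 0.10), while uninjured libraries held 126, 117 and 135 CPM in Q150X against 90.1, 81.4 and 80.0 CPM in WT (0.59 ± 0.10). Tuba8, an alpha tubulin, was at -0.08 ± 0.16 at day 3 and 0.94 ± 0.16 without injury. Agpat5, an enzyme of phospholipid synthesis, was at -0.21 ± 0.12 at day 3 and 0.48 ± 0.12 without injury, and Map10 at -0.65 ± 0.21 and 0.53 ± 0.21. Clec12a, a myeloid lectin, was at -0.08 ± 0.35 at day 3 and had 4, 6 and 2 counts in uninjured Q150X against 0, 0 and 0 in uninjured WT.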

How the data were processed

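Raw counts per gene were deposited by the authors as 1 table of 57010 genes in 43 libraries, with no normalization. Per the labels, RNA was extracted with Trizol and 2 µg per library was sequenced. The submitters' processing notes name GRCm39, HISAT2 and kallisto. No source used here states tool versions, which tool made the counts, the annotation or the strand setting. Symbols came from GENCODE vM21 by identifier (52029 matched).

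The 12 cardiomyocyte libraries (4 groups of 3) were fitted together with edgeR 4.0.16 (R 4.3.3): filterByExpr by group (count minimum 10, total minimum 15), TMM factors, robust quasi-likelihood F-test, Benjamini-Hochberg adjustment over 15169 genes. SE values were derived from the fold change and the F statistic, and 95% intervals use the fit's degrees of freedom. CPM are TMM-scaled. No 2 replicates were identical: squared differences between day 3 replicates were 22.0 to 60.6 times counting noise per gene.

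The comparison, the 45 gene lists and the rules were chosen with earlier results of these data known. Named are Vegfa, Kdr and Flt1, the 10 smallest p per direction, since none passed the test (mean at least 1 log2 CPM, no numbered or unnamed genes), up to 2 genes of smallest p per list (some are not reported here), and the 5 smallest p per direction of the interaction. Lists are described by counts and medians. Of 964 list genes, 911 were tested. Atrial, neutrophil, lymphocyte, red cell and Schwann lists are given in the text as levels only, and the sex-linked list through single genes. The epicardial list is given as levels and a median, and the adipocyte list had 0 tested genes.

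Alternatives were DESeq2 size factors, library size alone, no filter, DESeq2 1.42.0, limma 3.58.1 voom with quality weights, the compared groups alone, a replicate block, each library left out, and, added later, a macrophage-marker covariate. The fits were tested on simulated data. Figures used matplotlib 3.10.9.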

Additional observations from a re-analysis of the deposited data

How the results depend on the processing

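At day 3 the count of genes past adjusted p 0.05 (0) was 8 without a filter, 2 with DESeq2 and 1 with voom, 0 to 1 with 1 library left out (1 without WT day 3 library 1), and 0 with DESeq2 size factors, library size alone, the compared groups alone and the macrophage covariate. Without injury (0) it was 3 with library size alone, 543 without a filter, 257 with DESeq2, 8 with voom and 0 to 49 with 1 library left out (49 without Q150X library 2, 38 without WT library 1). The interaction count (0) was 219 without a filter, 20 with DESeq2 and 0 to 1 with 1 library left out (1 without uninjured Q150X library 2). The cause of these differences was not tested. With the replicate block the counts were 0 at day 3, 12 without injury and 0 for the interaction. Same-numbered libraries did not deviate together (r = -0.12, 0.0010 and -0.22 at day 3, -0.03, 0.08 and 0.08 without injury). Such correlations over all genes cannot show whether these libraries share a batch. Of 2278 values of named genes under alternatives, 2227 kept their side of the threshold and moved by less than 1 SE, 45 moved further and 4 passed the threshold, those of Abat, Zkscan3, mt-Rnr2 and Ccrl2 without a filter. The sign turned in 33 of these values, of 15 genes. In all but 2 of the 33 the reported value was within 1 SE of 0, among them Mmp9 (-0.97 with voom, 0.22 reported) and Hbb-bs (-0.49 with voom and -0.25 without Q150X library 3, 0.53 reported). The 2 others were Eif2s3y, a Y-linked gene, at 0.036 with voom (-0.13 reported), and Atp5d, which ranged from -0.0092 to 0.32 with 1 library left out. No list had a called member under any alternative run. Depth and spread left 51.4% of genes with an interval that excludes a 1.5-fold difference, and 97.6% of those of at least 10 CPM with one that excludes a 2-fold difference.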

Other observations

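The 2 genes of smallest p at day 3 fall outside the naming rule and were singled out after their values were seen. Capn11, a calpain gene on chromosome 17, had 1, 1 and 0 counts in Q150X libraries against 29, 30 and 67 counts in WT libraries (adjusted p = 0.317 by edgeR's quasi-likelihood test, 0.0233 by DESeq2, 1.9e-05 by edgeR without a filter). Without injury the counts were 1, 4 and 6 in Q150X against 21, 6 and 4 in WT. Elsewhere in the series, endothelial libraries at day 3 held 1 and 17 counts in Q150X and 40 and 182 in WT, in the same order as the cardiomyocytes. Whole hearts at day 7 held 30, 0, 0 and 11 counts in Q150X and 0, 57, 40 and 3 in WT, whole hearts at day 30 held 1, 71, 16 and 31 counts in Q150X and 43, 104 and 0 in WT, and uninjured endothelial libraries held 3, 58 and 2 in Q150X and 0, 0 and 472 in WT. Uninjured whole hearts held 12, 1 and 0 counts of Capn11 in Q150X and 0, 0 and 2 in WT. ENSMUSG00000095041, an unnamed gene of an unplaced scaffold, had 16.3, 13.9 and 10.3 CPM in Q150X against 7.15, 3.66 and 4.28 CPM in WT (1.43 ± 0.25). Its adjusted p was 0.317 by edgeR's quasi-likelihood test, 2.2e-04 by DESeq2, 0.0292 by limma voom and 7.6e-13 by edgeR without a filter. Without injury it had 12.1, 11.6 and 13.8 CPM in Q150X and 14.4, 16.4 and 10.1 CPM in WT. Scaled by total counts, whole hearts at day 30 held 91.7, 59.6, 91.4 and 43.3 CPM in Q150X and 11.5, 23.3 and 30.6 in WT. Whole hearts at day 7 held 48.3, 51.4, 83.0 and 64.6 CPM in Q150X and 54.6, 29.5, 20.6 and 36.0 in WT. Endothelial libraries at day 3 held 78.8 and 292 CPM in Q150X and 66.2 and 52.1 in WT. In uninjured whole hearts and uninjured endothelial libraries the genotypes overlapped.

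Genes that lie near Vegfa on chromosome 17 were counted after the data were seen. Of the 40 nearest tested genes, 20 on each side in the GENCODE vM21 order, 5 (12.5%) had an unadjusted p under 0.05 at day 3, against 2.45% of the 694 tested genes of the chromosome and 1.67% of all genes. They were Cdc5l, Capn11, Xpo5 and Crip3 on the lower side and Klhdc3 on the higher side. Crip3 was near the counting limit, with 0.181, 0 and 0 CPM in Q150X against 0.332, 0.391 and 0.294 CPM in WT. Capn11 was scarce as well, as given above. Cdc5l differed by -0.20 ± 0.09 (unadjusted p = 0.0449 by edgeR's quasi-likelihood test). Without injury 6 of the 40 (15%) had such a p, against 13.2% of all genes. None passed the adjusted threshold.

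Liver transcripts differed between libraries. A list of 20 liver genes, written after the data were seen, summed to 28.1, 0.685 and 0.566 CPM in Q150X libraries of day 3 and 1.05, 1.10 and 1.11 CPM in WT libraries of day 3, and to 4.13 to 34.5 CPM in uninjured libraries. Q150X library 1 of day 3 stands apart in these genes, and also has the highest Hspa1a, Irs2, Cebpb and Myh7 values given above. The count of called genes at day 3 is 0 with and without that library.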
